A study of Mus musculus with 6 samples.

Results

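Glycolysis, the pentose phosphate pathway and the hypoxia response were followed as 3 groups of genes, listed by their function, in the telencephalon of newborn mice with and without Tsc1 in the cortical lineage. The list held 36 genes, of which 35 were among the 22651 genes of the tables: 20 genes of glycolysis and lactate handling, 7 of the pentose phosphate pathway and 8 of the hypoxia response. Pgam1 was not analysed here. The 3 WT mice carried the genotype TSC1 flox/flox;Emx1 +/+ and the 3 TSC1 mice TSC1 flox/flox;Emx1-cre/+, both sampled at postnatal day 0. The controls thus carried the floxed alleles as well and lacked the Cre. The Emx1-driven Cre acts in the dorsal cortex of the embryo and cuts out a piece of Tsc1 there. Cells that the Cre does not reach keep the gene, and which cell types of the tissue these were was not measured. The comparison asked which of these genes differed in mRNA level between the genotypes when mTOR signaling is hyperactivated.

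Glycolysis splits glucose into pyruvate in the cytosol, and pyruvate is then either reduced to lactate by lactate dehydrogenase or passed to the mitochondrion. The pentose phosphate pathway branches off at glucose 6-phosphate, and its oxidative branch makes NADPH while its non-oxidative branch interconverts sugar phosphates and makes ribose for nucleotides. Hypoxia-inducible factor (HIF) is a transcription factor whose alpha subunit is hydroxylated by prolyl hydroxylases when oxygen is present and then degraded, and it binds a short core sequence in many genes of glycolysis and of vessel growth. mTOR complex 1, which the TSC1 and TSC2 proteins hold in check, is known from cultured cells to raise HIF-1alpha and genes of glycolysis and of the pentose phosphate pathway.

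The promoters of these genes carry the HIF core sequence to different extents, and 4 of them are shown because they belong to the member that passed the test (Vegfa), to the member with the largest difference in each direction (Slc2a1 and Ankrd37) and to a textbook HIF target whose groups overlapped (Ldha). Each window is 300 bases of RefSeq sequence (GRCm38.p6, the assembly of mm10), from 250 bases before the start of transcription to 50 after it, written 5′ to 3′ on the strand of the gene. Capitals mark ACGTG or GCGTG, the HIF core, on either strand (CACGT or CACGC when read on the other), and a CACGTG, which holds a core on both strands, is in capitals as a whole. Slc2a1 lies at chr4:119108495-119108794 on the plus strand, the first listed start of Ldha at chr7:46845554-46845853 on the plus strand, the first listed start of Vegfa at chr17:46032328-46032627 on the minus strand, and Ankrd37 at chr8:45999801-46000100 on the minus strand.
Slc2a1: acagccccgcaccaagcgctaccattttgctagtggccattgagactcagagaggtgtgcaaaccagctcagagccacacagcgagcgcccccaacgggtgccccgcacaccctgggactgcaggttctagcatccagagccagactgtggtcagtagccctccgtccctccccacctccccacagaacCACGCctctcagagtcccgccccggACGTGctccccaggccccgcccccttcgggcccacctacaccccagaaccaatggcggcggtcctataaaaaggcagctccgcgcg
Ldha: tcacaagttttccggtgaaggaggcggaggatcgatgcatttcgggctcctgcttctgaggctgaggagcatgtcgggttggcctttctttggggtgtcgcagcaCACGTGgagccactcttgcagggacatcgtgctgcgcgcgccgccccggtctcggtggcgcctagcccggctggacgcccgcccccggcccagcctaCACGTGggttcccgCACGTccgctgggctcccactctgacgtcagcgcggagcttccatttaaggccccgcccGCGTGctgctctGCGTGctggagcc
Vegfa: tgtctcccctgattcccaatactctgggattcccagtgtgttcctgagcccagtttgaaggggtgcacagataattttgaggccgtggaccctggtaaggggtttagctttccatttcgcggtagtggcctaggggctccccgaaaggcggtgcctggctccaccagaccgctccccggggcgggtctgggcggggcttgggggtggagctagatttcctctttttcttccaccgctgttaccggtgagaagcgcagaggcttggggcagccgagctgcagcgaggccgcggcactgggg
Ankrd37: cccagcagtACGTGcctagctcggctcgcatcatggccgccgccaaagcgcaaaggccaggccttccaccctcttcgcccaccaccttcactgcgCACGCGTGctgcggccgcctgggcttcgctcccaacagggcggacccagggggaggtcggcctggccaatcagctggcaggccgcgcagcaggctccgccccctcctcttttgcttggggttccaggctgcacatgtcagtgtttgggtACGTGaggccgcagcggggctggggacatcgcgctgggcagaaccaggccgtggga
The window of Ldha held 7 matches on the 2 strands, that of Ankrd37 held 4, that of Slc2a1 held 2 and the first window of Vegfa held 0. A window at the second listed start of Vegfa, at chr17:46025114-46025413 and inside the gene, held 2 matches. Sequence outside these windows was not searched, so a count of 0 does not extend beyond the window. Over the first listed start of each gene, 26 of the 33 members with a window (78.8%) held at least 1 match, beside 7959 of 15801 genes of the tables (50.4%). By group these were 14 of 19 for glycolysis (73.7%), 6 of 7 for pentose phosphate and 6 of 7 for hypoxia (85.7% each). The pentose phosphate genes thus held the core as often as the hypoxia genes. The E-box CACGTG, which contains the HIF core on both strands, was present in 5 of the 33 (15.2%), beside 8.2% of the 15801. Slc2a3 and Epas1 were not in the promoter table used here. A match describes the letters of the window and is not a site of binding.

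The libraries held 14119365 to 17772865 expected counts each, so that 3 counts, the smallest level read as a detection, correspond to 0.169 to 0.212 CPM, a count scaled to the total of its library. Levels are given as TPM, a share of all transcripts that is corrected for transcript length, and differences as log2 fold changes of TSC1 against WT from edgeR's quasi-likelihood test on the expected counts, with their standard error (SE). A gene was called when its Benjamini-Hochberg adjusted p over all 13969 genes tested was below 0.05. The p-values of edgeR set the difference between the groups against the spread between mice of a group. Tsc1 itself was at 50.2, 32.0 and 28.4 TPM in WT and at 27.1, 21.7 and 22.4 TPM in TSC1 mice, below all WT mice in all TSC1 mice, and its log2 fold change of -0.66 ± 0.18 (SE) was not called (edgeR, Benjamini-Hochberg adjusted p = 0.09998). This level is that of the whole gene, and the piece that the Cre cuts out was not measured on its own. Emx1, a marker of the dorsal telencephalon, was present in every library at 36.2 to 47.4 TPM. Of 9 telencephalic markers, 3 were higher and 6 lower in TSC1 mice. The 3 called were all lower: Dlx1 at a log2 fold change of -0.68, Gad1 at -0.83 and Gad2 at -1.03. Their part in the results on the members was not tested. WT replicate 3 and TSC1 replicate 3 were the males of their groups by their Xist and Y-linked counts. On the first principal component (47.7% of the variance), TSC1 replicate 3 lay at -3.95, between the WT mice (-26.3 to -7.43) and the other TSC1 mice (26.5 and 30.3), and results without it are given where they differ.

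All 35 genes passed the filter on low counts, and 1 of them, Vegfa, was called. The background of such calls was 1.52% of all genes tested, 0.859% of all genes being called higher in TSC1 mice and 0.659% lower. Among the members, 20 were higher and 15 lower in TSC1 mice, their median log2 fold change was 0.02 and their median absolute log2 fold change was 0.14. By group, the median log2 fold change was 0.0055 for glycolysis (10 higher and 10 lower), 0.0021 for the pentose phosphate pathway (4 higher and 3 lower) and 0.19 for hypoxia (6 higher and 2 lower). Over all genes tested the median log2 fold change was -0.0027 and the median absolute one 0.13. The members were measured with a median SE of 0.09 on the log2 scale, beside 0.12 over all genes. Of the 35, 27 had a log2 fold change within 0.2 of zero. An unadjusted p below 0.05 in edgeR was reached by 10 of the 35 (28.6%), beside 18.0% of all genes tested.

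**Figure D1:**
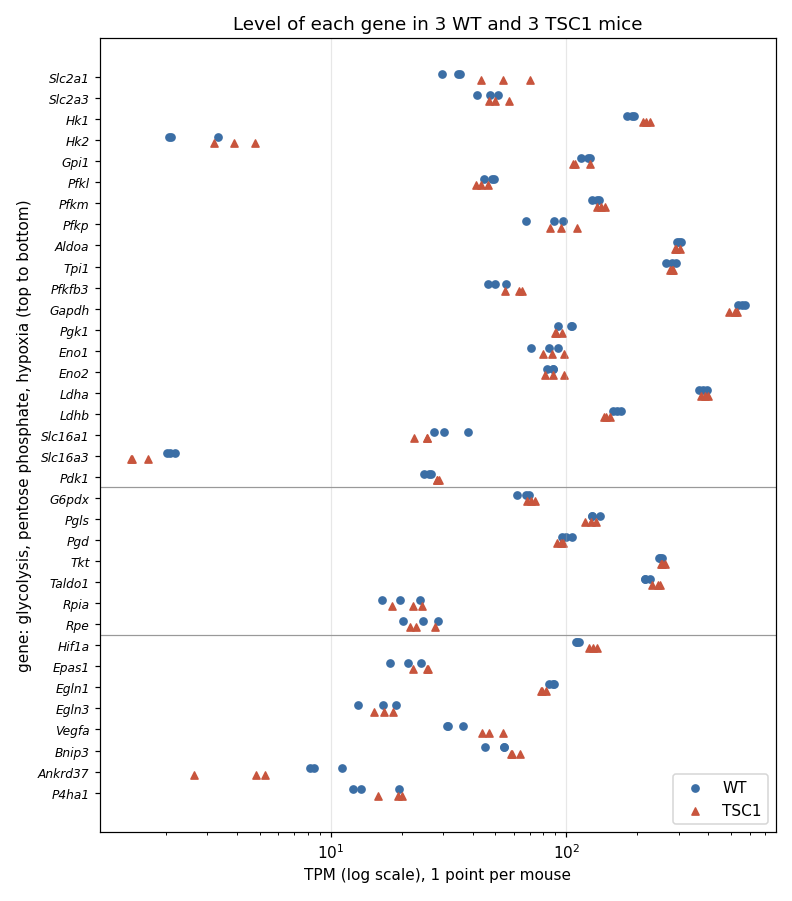
Level of the 35 genes in TPM on a log scale, 1 point per mouse, with WT as circles and TSC1 as triangles, and with the genes of glycolysis, pentose phosphate pathway and hypoxia from top to bottom. The genes span from 1.42 TPM (Slc16a3) to 573 TPM (Gapdh), and for most of them the points of both groups lie close together.

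**Figure D2:**
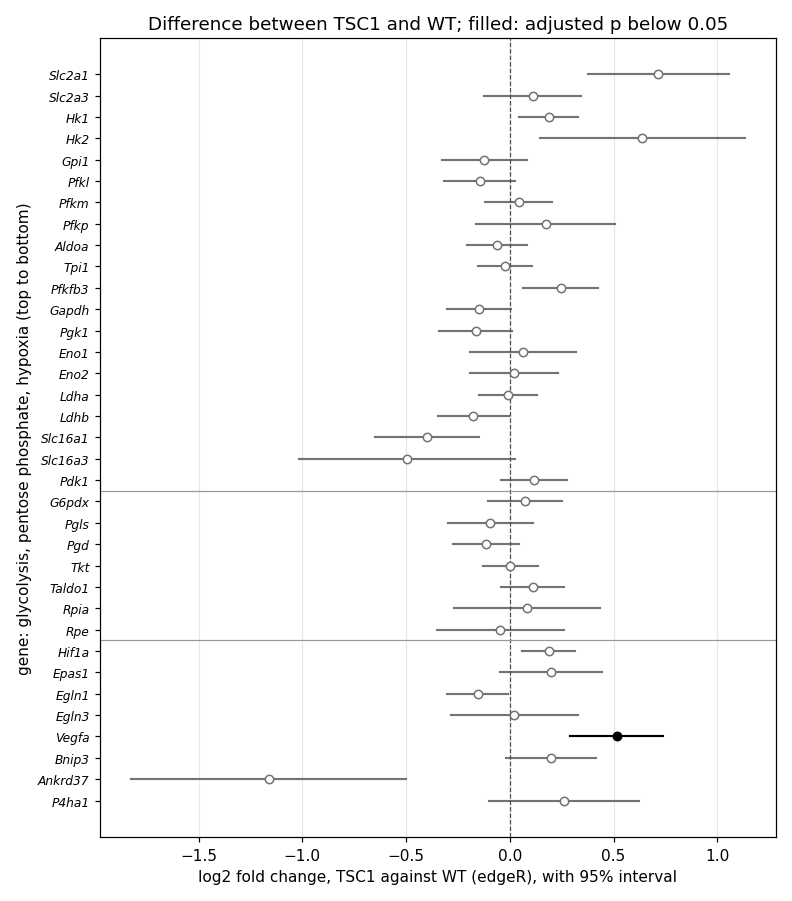
Log2 fold change of TSC1 against WT for the same genes from edgeR, with its 95% interval, the filled point being called at an adjusted p below 0.05. Vegfa is the filled point at 0.51, Slc2a1 lies farthest to the right at 0.72 and Ankrd37 farthest to the left at -1.16.

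In TMM-normalized CPM, the 3 mice of each group did not overlap for 17 of the 35 genes, 8 of them higher in TSC1 mice and 9 lower. Over all genes tested, 10.9% were higher without overlap and 11.7% lower. In TPM, 13 members did not overlap, since Pfkl, Pfkfb3, Pgk1 and Pgd overlap on that scale. The members without overlap in CPM were Slc2a1, Hk1, Pfkfb3, Pdk1, Taldo1, Hif1a, Vegfa and Bnip3 on the higher side and Pfkl, Gapdh, Pgk1, Ldhb, Slc16a1, Slc16a3, Pgd, Egln1 and Ankrd37 on the lower side. Both sides thus held genes of glycolysis, of the pentose phosphate pathway and of the hypoxia response.

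Glucose enters brain cells mainly through GLUT1, encoded by Slc2a1 and typical of vessels and glia, and GLUT3, encoded by Slc2a3 and typical of neurons. Slc2a1 was at 35.5, 34.9 and 29.7 TPM in WT and at 70.1, 43.5 and 54.1 TPM in TSC1 mice. The 3 TSC1 mice were all above the 3 WT mice, and TSC1 replicate 1 was the highest. The log2 fold change was 0.72 ± 0.15 (SE, n = 3 per group), a ratio of 1.64 with a 95% interval of 0.38 to 1.05 on the log2 scale, and it missed the threshold narrowly (edgeR, Benjamini-Hochberg adjusted p = 0.0554). DESeq2 called it (adjusted p = 0.000379), as did edgeR without a filter on low counts (adjusted p = 0.0307), without TSC1 replicate 2 (adjusted p = 0.0473) and without TSC1 replicate 3 (adjusted p = 0.0372). Leaving out any of the other 4 mice gave no call (edgeR, Benjamini-Hochberg adjusted p = 0.0604 to 0.192). Slc2a3 was at 51.3, 41.8 and 47.4 TPM in WT and at 47.1, 49.9 and 57.1 TPM in TSC1 mice, with overlapping groups and a log2 fold change of 0.11 (edgeR, Benjamini-Hochberg adjusted p = 0.619). The share of Slc2a1 in the sum of both transporters was 41.6% ± 3.53 in the WT group and 51.7% ± 7.11 in the TSC1 group (SD, n = 3 each). These groups did not overlap either, and the difference of 10.1 percentage points gave p = 0.1 in an exact two-sided permutation test, the smallest value that 3 against 3 mice allow (0.3 after Benjamini-Hochberg adjustment over 6 shares).

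Slc2a1 is abundant in brain endothelium and in the choroid plexus, and in bulk tissue fewer cells of a type and less RNA per cell cannot be told apart. Of 9 endothelial markers, 7 were lower and 2 higher in TSC1 mice, with a median log2 fold change of -0.48. In edgeR 0 were called, and 6 had an unadjusted p below 0.05, 5 of them lower and 1 higher. The summed level of the 9 markers ranged from 211 to 275 TPM in WT and from 187 to 220 TPM in TSC1 mice, so that the groups overlapped. Claudin-5 (Cldn5), a tight-junction gene of brain endothelium, was at 118, 129 and 95.9 TPM in WT and at 91.1, 83.4 and 76.1 TPM in TSC1 mice, while Ly6c1 had a log2 fold change of 0.43 and Flt1 of 0.02. The 5 choroid plexus markers were all lower without overlap. In edgeR 0 of these 5 were called, and all 5 had an unadjusted p below 0.05. Their summed level, made up mostly of Ttr, ranged from 1173 to 2466 TPM in WT and from 30.6 to 865 TPM in TSC1 mice. Their part in the results on Slc2a1 and on the other members was not tested.

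Hexokinase commits glucose to the cell by phosphorylating it, and Hk1 is the main form of brain. Hk1 was at 195, 191 and 181 TPM in WT and at 211, 228 and 218 TPM in TSC1 mice, with all TSC1 mice above all WT mice. The log2 fold change was small, 0.19 ± 0.06 (SE), and was not called (edgeR, Benjamini-Hochberg adjusted p = 0.164). Hk2, the inducible form and a known HIF target, was far lower, at 3.31, 2.05 and 2.1 TPM in WT and at 3.88, 4.75 and 3.19 TPM in TSC1 mice. The groups overlapped through WT replicate 1, and the log2 fold change of 0.64 ± 0.22 (SE) rested on 61 to 133 expected counts per mouse and was not called (edgeR, Benjamini-Hochberg adjusted p = 0.174). Hk2 made up 1.29% of the summed hexokinase level in WT and 1.76% in TSC1 mice (exact two-sided permutation test, p = 0.2, and 0.4 after Benjamini-Hochberg adjustment over 6 shares).

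The 6 enzymes of upper glycolysis among the members differed little, unlike the aldolase Aldoc, which was not a member and is given further below. Aldolase A (Aldoa), which splits fructose 1,6-bisphosphate and was the most abundant of the 6 members, was at 296, 306 and 301 TPM in WT and at 291, 289 and 304 TPM in TSC1 mice, with overlapping groups. Phosphofructokinase, the main point of control of the pathway, is built from subunits of 3 types. The liver type Pfkl had a log2 fold change of -0.14, the muscle type Pfkm of 0.04 and the platelet type Pfkp of 0.17. Pfkp was the most variable of these between mice of a group, at 67.6 to 96.8 TPM in WT and 85.6 to 111 TPM in TSC1 mice, and it held 31.6% of the summed phosphofructokinase level in WT and 34.5% in TSC1 mice (exact two-sided permutation test, p = 0.4, and 0.6 after Benjamini-Hochberg adjustment over 6 shares). Glucose-6-phosphate isomerase (Gpi1) was lower by a log2 fold change of -0.12 and triosephosphate isomerase (Tpi1) by -0.02, and both overlapped between the groups. None of these 6 genes was called (edgeR, Benjamini-Hochberg adjusted p = 0.354 for Pfkl, the lowest of them).

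Pfkfb3 makes fructose 2,6-bisphosphate, the activator of phosphofructokinase, and is a known HIF target. It was at 55.6, 49.8 and 46.7 TPM in WT and at 64.9, 63.3 and 54.9 TPM in TSC1 mice. In TPM the groups overlapped by a narrow margin, between WT replicate 1 and TSC1 replicate 3, and in CPM they did not. The log2 fold change of 0.25 ± 0.08 (SE) was not called (edgeR, Benjamini-Hochberg adjusted p = 0.156).

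In lower glycolysis, Gapdh, the most abundant member of all, was at 536, 557 and 573 TPM in WT and at 533, 488 and 519 TPM in TSC1 mice. The TSC1 mice were all below the WT mice, with TSC1 replicate 1 just under WT replicate 1, and the log2 fold change of -0.15 was not called (edgeR, Benjamini-Hochberg adjusted p = 0.289). Phosphoglycerate kinase (Pgk1), which makes the first ATP of the pathway, had a log2 fold change of -0.17 (edgeR, Benjamini-Hochberg adjusted p = 0.309). The enolases Eno1 and the neuronal form Eno2 had log2 fold changes of 0.06 and 0.02 with overlapping groups. Eno1 was the only member with fractional expected counts, in 5 of 6 libraries, so that a part of its reads was shared with other genes and its value is less certain. Eno2 held 51.2% of the summed enolase level in WT and 50.3% in TSC1 mice (exact two-sided permutation test, p = 0.8, also after Benjamini-Hochberg adjustment over 6 shares).

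The intervals give the range of differences that these mice leave possible. Over the 13 glycolysis enzymes other than Hk2, from Hk1 through lactate dehydrogenase, log2 fold changes lay between -0.18 and 0.19, and the 95% intervals reached from -0.35 to 0.51, that is from a ratio of 0.787 to a ratio of 1.42. Their mean levels ranged from 45.6 to 534 TPM. With Hk2, the summed level of the 14 enzymes was 2528 ± 35.1 TPM in the WT group and 2511 ± 53.2 TPM in the TSC1 group (SD, n = 3 each), a ratio of 0.993. The ratio was 0.959 in FPKM and 0.9995 in CPM, so the sums differed by at most a few percent on any of these scales. The sum weights abundant enzymes most, and the transporters are not in it. Pyruvate kinase (Pkm), not a member, is also outside it, at a mean of 504 TPM in WT and 475 TPM in TSC1 mice. So is Aldoc, at means of 157 and 243 TPM.

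Lactate dehydrogenase is a tetramer of A subunits, the form of glycolytic tissue, and B subunits, the form of oxidative tissue. Ldha, with 7 core matches in the window shown above, was at 394, 380 and 367 TPM in WT and at 372, 399 and 388 TPM in TSC1 mice. The groups overlapped and the log2 fold change was -0.01 (edgeR, Benjamini-Hochberg adjusted p = 0.961). Ldhb was at 163, 158 and 170 TPM in WT and at 147, 145 and 154 TPM in TSC1 mice. All TSC1 mice were below all WT mice, and the log2 fold change of -0.18 ± 0.08 (SE) was not called (edgeR, Benjamini-Hochberg adjusted p = 0.264). The share of Ldha in the sum of both subunits was 70.7%, 70.6% and 68.3% in WT and 71.7%, 73.3% and 71.6% in TSC1 mice. It was higher in all TSC1 mice by a mean of 2.35 percentage points (exact two-sided permutation test, p = 0.1, the smallest possible, and 0.3 after Benjamini-Hochberg adjustment over 6 shares).

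Monocarboxylate transporters carry lactate and pyruvate across the cell membrane. MCT1, encoded by Slc16a1 and typical of vessels and glia, was at 38.1, 30.4 and 27.4 TPM in WT and at 25.6, 25.7 and 22.7 TPM in TSC1 mice. All TSC1 mice were below all WT mice. The log2 fold change of -0.40 ± 0.11 (SE) was not called by edgeR (Benjamini-Hochberg adjusted p = 0.107) and was called by DESeq2 (adjusted p = 0.0351). MCT4, encoded by Slc16a3 and a known HIF target, was the least abundant member, at 2.18, 2.08 and 2.01 TPM in WT and at 1.43, 1.42 and 1.68 TPM in TSC1 mice. Those groups did not overlap, at 17 to 32 expected counts per mouse, and the log2 fold change was -0.49 ± 0.23 (SE; edgeR, Benjamini-Hochberg adjusted p = 0.301). Pdk1, a kinase that inhibits pyruvate dehydrogenase and a HIF target, was at 26.6, 26.02 and 24.9 TPM in WT and at 28.9, 28.3 and 28.3 TPM in TSC1 mice, with a log2 fold change of 0.11 (edgeR, Benjamini-Hochberg adjusted p = 0.429). The endothelial markers given above stand beside Slc16a1 as well, which is also abundant in brain endothelium.

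**Figure D3:**
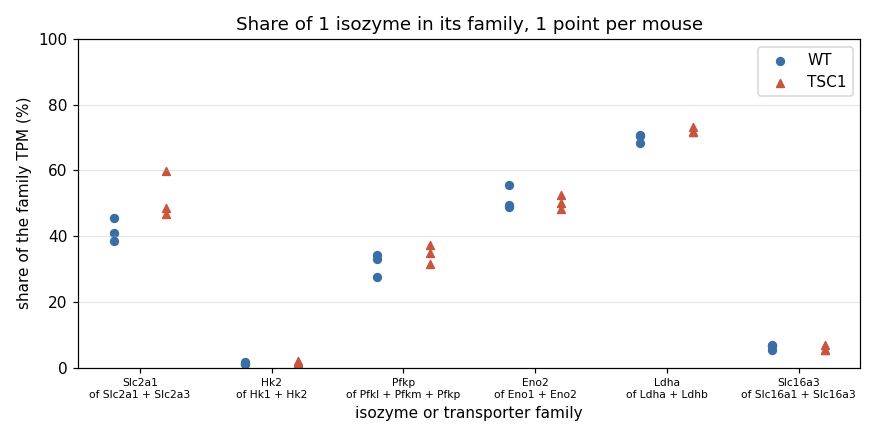
Share of 1 gene in the summed TPM of its isozyme or transporter family in percent, 1 point per mouse, WT as circles and TSC1 as triangles. The shares of Slc2a1 (41.6% and 51.7% on average) and of Ldha (69.9% and 72.2%) did not overlap between the groups, and the other 4 did.

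The 7 enzymes of the pentose phosphate pathway showed no difference that passed the test. Transketolase (Tkt), which moves carbon units between sugar phosphates, was at 251, 256 and 248 TPM in WT and at 256, 262 and 253 TPM in TSC1 mice, and its log2 fold change was 0.00 (edgeR, Benjamini-Hochberg adjusted p = 0.989). Transaldolase (Taldo1), its partner in the non-oxidative branch, was at 215, 227 and 216 TPM in WT and at 246, 250 and 231 TPM in TSC1 mice. For Taldo1 the TSC1 mice were all above the WT mice, with a log2 fold change of 0.11 (edgeR, Benjamini-Hochberg adjusted p = 0.435). Rpia and Rpe, the isomerase and the epimerase of pentose 5-phosphates, had log2 fold changes of 0.08 and -0.05 with overlapping groups.

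In the oxidative branch, glucose-6-phosphate dehydrogenase (G6pdx), the X-linked entry enzyme that controls the branch, was at 67.2, 61.5 and 69.6 TPM in WT and at 73.8, 68.2 and 71.0 TPM in TSC1 mice. The groups overlapped and the log2 fold change was 0.07 (edgeR, Benjamini-Hochberg adjusted p = 0.657). The lactonase Pgls was at 128, 139 and 128 TPM in WT and at 120, 134 and 127 TPM in TSC1 mice, and 6-phosphogluconate dehydrogenase (Pgd) was at 99.4, 105 and 95.8 TPM in WT and at 95.3, 96.5 and 91.6 TPM in TSC1 mice. Their log2 fold changes were -0.09 and -0.12. The 95% intervals of G6pdx, Pgls and Pgd all included zero. Over the 7 genes, log2 fold changes lay between -0.12 and 0.11, and the 95% intervals reached from -0.35 to 0.43, that is from a ratio of 0.783 to a ratio of 1.35. The summed level of the 7 enzymes was 814 ± 14.5 TPM in the WT group and 838 ± 20.8 TPM in the TSC1 group (SD, n = 3 each), a ratio of 1.03 in TPM, 0.993 in FPKM and 1.005 in CPM.

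Of the HIF alpha subunits, Hif1a was at 114, 110 and 111 TPM in WT and at 135, 130 and 124 TPM in TSC1 mice. All TSC1 mice were above all WT mice, and the log2 fold change of 0.19 ± 0.06 (SE) was not called (edgeR, Benjamini-Hochberg adjusted p = 0.137). Epas1, which encodes HIF-2alpha and is typical of endothelium, was at 24.3, 21.3 and 17.8 TPM in WT and at 25.7, 22.4 and 25.8 TPM in TSC1 mice, with overlapping groups and a log2 fold change of 0.20 (edgeR, Benjamini-Hochberg adjusted p = 0.375). Hif1a was the more abundant subunit in every library. HIF-1alpha is controlled to a large extent as a protein, which these mRNA data do not measure.

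The prolyl hydroxylases mark HIF alpha subunits for degradation. PHD2, encoded by Egln1, was at 87.9, 88.8 and 84.7 TPM in WT and at 79.3, 77.9 and 82.3 TPM in TSC1 mice. All TSC1 mice were below all WT mice, and the log2 fold change of -0.15 ± 0.07 (SE) was not called (edgeR, Benjamini-Hochberg adjusted p = 0.258). PHD3, encoded by Egln3 and induced by HIF in many cells, was at 18.9, 16.7 and 13.1 TPM in WT and at 18.3, 16.8 and 15.2 TPM in TSC1 mice, with a log2 fold change of 0.02 (edgeR, Benjamini-Hochberg adjusted p = 0.955).

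Vegfa, the main growth factor of vessels, a HIF target and the one member that was called, lies at chr17:46016993-46032377. It was at 31.6, 36.6 and 31.3 TPM in WT and at 54.0, 47.1 and 44.0 TPM in TSC1 mice, from 519 to 900 expected counts per mouse. The lowest TSC1 mouse was above the highest WT mouse. Vegfa rose in TSC1 mice by a log2 fold change of 0.51 ± 0.10 (SE, n = 3 per group), a ratio of 1.43, with a 95% interval of 0.29 to 0.74 on the log2 scale (edgeR, Benjamini-Hochberg adjusted p = 0.0460). The call lay close to the threshold. It was lost when WT replicate 1, 2 or 3 or TSC1 replicate 1 or 2 was left out (edgeR, Benjamini-Hochberg adjusted p = 0.0542 to 0.185) and kept without TSC1 replicate 3 (adjusted p = 0.0188), while the log2 fold change stayed between 0.45 and 0.59 over these fits. Kdr and Flt1, the receptors of this factor, are among the endothelial markers whose sum is given above. Their log2 fold changes were -0.48 and 0.02, and neither was called.

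Bnip3, a mitochondrial protein of autophagy and cell death and a HIF target, was the most abundant of the 4 targets, at 54.4, 45.4 and 54.3 TPM in WT and at 63.5, 59.1 and 58.0 TPM in TSC1 mice. Bnip3 was higher in each TSC1 mouse than in any WT mouse, with a log2 fold change of 0.20 (edgeR, Benjamini-Hochberg adjusted p = 0.319). P4ha1, a collagen prolyl hydroxylase, was at 19.5, 12.5 and 13.4 TPM in WT and at 19.4, 20.04 and 15.8 TPM in TSC1 mice, with overlapping groups and a log2 fold change of 0.26 (edgeR, Benjamini-Hochberg adjusted p = 0.432).

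Ankrd37, an ankyrin repeat protein whose gene is a known HIF target, was on the opposite side. It was at 8.47, 11.2 and 8.14 TPM in WT and at 2.62, 4.84 and 5.24 TPM in TSC1 mice, on 42, 63 and 37 expected counts in WT and 12, 21 and 26 in TSC1 mice. The highest TSC1 mouse was below the lowest WT mouse. The log2 fold change of -1.16 ± 0.29 (SE), a ratio of 0.447 with a 95% interval of -1.83 to -0.50 on the log2 scale, was not called (edgeR, Benjamini-Hochberg adjusted p = 0.0874). It was called without TSC1 replicate 3, at a log2 fold change of -1.37 (edgeR, Benjamini-Hochberg adjusted p = 0.0469). Vegfa, Bnip3, P4ha1 and Ankrd37, the 4 genes listed as HIF targets in the hypoxia group, thus lay on both sides of zero.

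**Figure D4:**
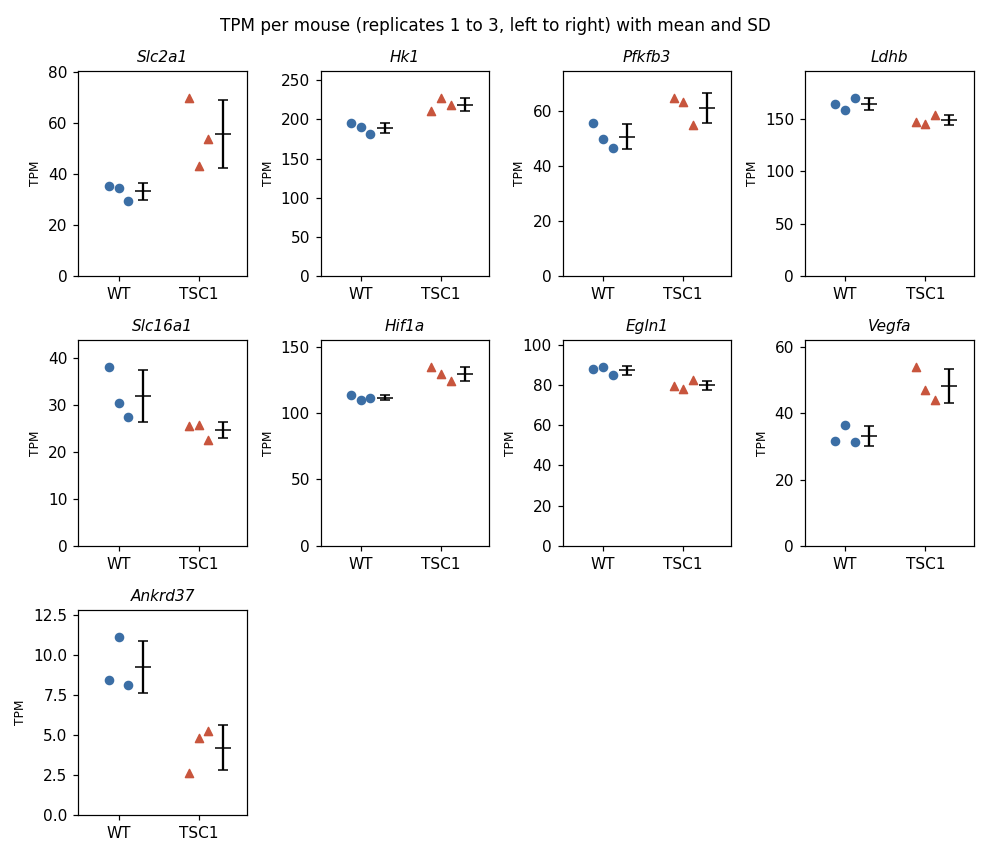
TPM in each mouse, replicates 1 to 3 from left to right, with mean and SD, for the 9 members that did not overlap in CPM and had an unadjusted p below 0.05. Slc2a1, Hk1, Pfkfb3, Hif1a and Vegfa were on the higher side in TSC1 mice and Ldhb, Slc16a1, Egln1 and Ankrd37 on the lower side.

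**Figure D5:**
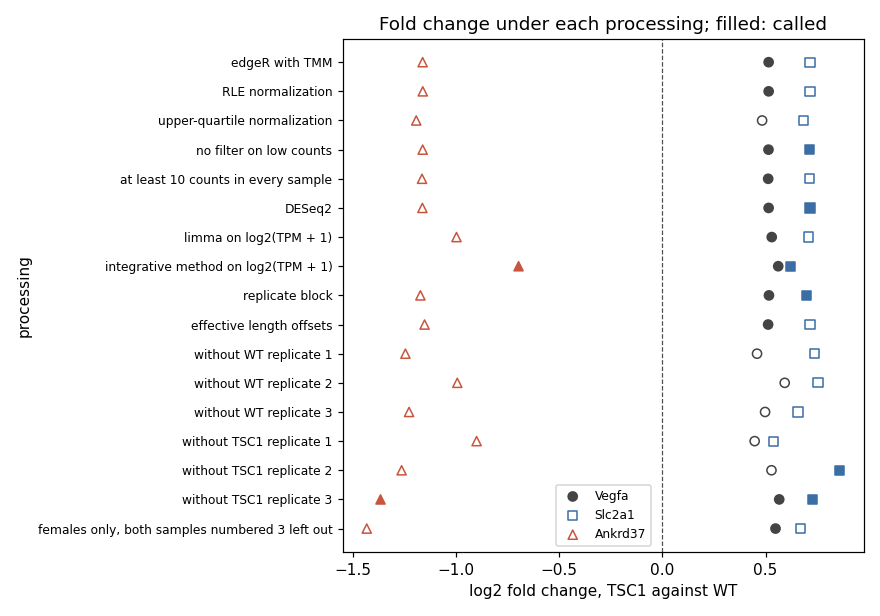
Log2 fold change of Vegfa (circles), Slc2a1 (squares) and Ankrd37 (triangles) under edgeR with TMM and 16 other ways of processing, filled where the gene was called. The sign was the same in all of them, and Vegfa ranged from 0.45 to 0.59, Slc2a1 from 0.54 to 0.86 and Ankrd37 from -1.43 to -0.70.

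Other genes of the same pathways, listed by function, were read beside the members. Of 53 other genes listed for glycolysis, pyruvate entry and glycogen, 48 were in the tables and the other 5 were not analysed here. Of the 45 that passed the filter, 28 were higher and 17 lower in TSC1 mice, the median log2 fold change was 0.05, and 1 was called. That gene was Aldoc, the aldolase of astrocytes and radial glia, which rose from 170, 144 and 158 TPM in WT to 262, 253 and 214 TPM in TSC1 mice, by a log2 fold change of 0.60 ± 0.09 (SE; edgeR, Benjamini-Hochberg adjusted p = 0.0195). Its groups were well apart, in contrast to its isozyme Aldoa, which overlapped. The summed level of 7 markers of radial glia and astrocytes ranged from 2885 to 3472 TPM in WT and from 2827 to 2992 TPM in TSC1 mice, a sum made up mostly of Fabp7. Of the 7 markers, 2 were higher and 5 lower, the median log2 fold change was -0.13, and 1 was called, Gfap, which rose by a log2 fold change of 1.09 (edgeR, Benjamini-Hochberg adjusted p = 0.00683). Gja1 and Slc1a3 were on the lower side, at -0.69 and -0.31, and were not called. Their part in the result on Aldoc was not tested.

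Basigin (Bsg), the chaperone that brings MCT1 and MCT4 to the cell surface and a marker of brain vessels, was at 539, 549 and 519 TPM in WT and at 433, 412 and 483 TPM in TSC1 mice. It was below all WT mice in all TSC1 mice, as were Slc16a1 and Slc16a3, with a log2 fold change of -0.31 that was not called (edgeR, Benjamini-Hochberg adjusted p = 0.0801). The glucose transporter Slc2a12 was at 7.56, 7.76 and 7.14 TPM in WT and at 4.15, 2.58 and 5.99 TPM in TSC1 mice, and was not called either (edgeR, Benjamini-Hochberg adjusted p = 0.129).

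Among 11 other genes of pentose phosphates and of NADPH supply, 4 were higher and 7 lower, the median log2 fold change was -0.09 and 0 were called in edgeR, with 1 at an unadjusted p below 0.05. That gene was malic enzyme (Me1), which makes NADPH in the cytosol, at a log2 fold change of 0.24 (edgeR, Benjamini-Hochberg adjusted p = 0.214). Isocitrate dehydrogenase (Idh1), which also makes NADPH, had a log2 fold change of 0.13 and the phosphoribosyl pyrophosphate synthetase Prps2 one of -0.19.

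Of 34 other genes listed for the HIF system and its targets, 32 were in the tables and the other 2 were not analysed here. Of the 30 that passed the filter, 16 were higher and 14 lower, the median log2 fold change was 0.04, and 2 were called, both higher. Ddit4, which encodes REDD1, an inhibitor of mTOR complex 1 that hypoxia and stress induce, rose from 89.0, 87.1 and 72.1 TPM in WT to 186, 162 and 148 TPM in TSC1 mice, by a log2 fold change of 0.97 ± 0.10 (SE; edgeR, Benjamini-Hochberg adjusted p = 0.00319). Hif3a, an alpha subunit with forms that hold HIF in check, rose from 3.01, 2.83 and 2.54 TPM to 9.51, 5.99 and 8.52 TPM, by a log2 fold change of 1.49 ± 0.17 (SE; edgeR, Benjamini-Hochberg adjusted p = 0.00526). For both genes the lowest TSC1 mouse was far above the highest WT mouse. Car12, a carbonic anhydrase and HIF target, was at 8.60, 5.13 and 10.4 TPM in WT and at 2.48, 2.56 and 4.06 TPM in TSC1 mice, with a log2 fold change of -1.42 that was not called (edgeR, Benjamini-Hochberg adjusted p = 0.0534). The choroid plexus marker Ttr was at 1652, 1142 and 2411 TPM in WT and at 23.9, 102 and 843 TPM in TSC1 mice, and the part of these cells in the result on Car12 was not tested. Ankrd37 and Car12 were thus HIF targets on the lower side that were not called, and Vegfa and Ddit4 were HIF targets that rose and were called. Of the 24 targets tested among these other genes, Car12 and Ddit4 included, 13 were higher and 11 lower.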

How the data were processed

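The samples were telencephalon tissue of 3 WT and 3 TSC1 mice, grouped by the genotype label, with 1 gene table per mouse. The authors prepared mRNA libraries, trimmed the reads after FastQC, mapped them with MapSplice2 to mm10, and RSEM 1.2.12 gave the level of each RefSeq gene. The deposited expected count is RSEM's estimate of the reads of a gene, without normalization. The TPM and FPKM deposited by the authors are RSEM's values per effective length, TPM as a share of all transcripts and FPKM relative to the fragments counted. A gene whose reads also match other genes gets a fractional expected count, and TPM depends on the effective length, so both scales were read.

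After rounding to whole numbers, the expected counts entered edgeR 4.0.16 (R 4.3.3; TMM, filterByExpr, quasi-likelihood test, Benjamini-Hochberg adjustment over all genes tested). SE is the log2 fold change divided by the root of the F statistic, and 95% intervals use the t distribution with the fitted degrees of freedom. Shares were compared with exact two-sided permutation tests (scipy 1.17.1), and scripts were tested on simulated data. Replicate libraries differed by more than sampling noise (chi-square per degree of freedom 5.67 to 17.4 within groups), so all were kept. 

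Alternatives were RLE and upper-quartile normalization, no filter, at least 10 counts in every sample, DESeq2 1.42.0, limma 3.58.1 on log2(TPM + 1), the study's integrative method on log2(TPM + 1) of genes at 1 TPM or more in at least 3 samples (T and median ratio with a null from all 20 assignments, fold cut at the 95th percentile), a replicate block, effective length offsets, each mouse left out in turn, and both replicates 3 left out.

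Named in full were members with an adjusted p below 0.05, or without overlap in CPM and with an unadjusted p below 0.05, and the most abundant member of each role. Of the other pathway genes, those called and the 3 with the lowest p of each list were named, with further members and markers chosen after their values were seen. Members and lists were chosen with earlier results of these data known. Positions are from RefSeq on GRCm38.p6, counted from 1, and motifs were searched on both strands.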

Additional observations from a re-analysis of the deposited data

How the results depend on the processing

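The number of called members was 1 under edgeR with TMM, under RLE normalization, a minimum of 10 counts in every sample, limma, effective length offsets and with both replicates 3 left out. It was 0 under upper-quartile normalization (Vegfa: adjusted p = 0.0574, edgeR with Benjamini-Hochberg adjustment), 2 without a filter on low counts (Slc2a1, Vegfa), 3 with DESeq2 (Slc2a1, Slc16a1, Vegfa) and 5 with the integrative method (Slc2a1, Hk2, Vegfa, Ankrd37, P4ha1). It was 2 with a replicate block (Slc2a1, Vegfa), a fit that called 551 genes in all, beside 212 without it. The labels do not tie mice of the same number together, and their deviations correlated at 0.27, -0.13 and 0.32. Leaving out 1 mouse gave 0 to 3 called members and 29 to 799 called genes. Over all genes, edgeR without a filter called 346, DESeq2 640, the integrative method 1008 and edgeR with both replicates 3 left out 434. The sign was the same in all 16 alternatives for 26 of the 35 members. The other 9 had log2 fold changes close to zero. Those that turned were Eno2 at -0.0107, Tkt at -0.0289 and Egln3 at -0.0092 under upper-quartile normalization, Tkt at -0.0001 with at least 10 counts, Tpi1 at 0.0106 and Ldha at 0.0221 under limma, and Tpi1 at 0.0068, Eno2 at -0.0013 and Ldha at 0.0294 under the integrative method. With both replicates 3 left out, Eno1 was at -0.11, Eno2 at -0.0325, Rpe at 0.0014 and Egln3 at -0.0356. With 1 mouse left out, log2 fold changes ran from -0.0056 to 0.0848 for Pfkm, -0.0289 to 0.1562 for Eno1, -0.0662 to 0.0956 for Eno2, -0.0369 to 0.0327 for Ldha, -0.0219 to 0.0223 for Tkt, -0.0198 to 0.203 for Rpia, -0.163 to 0.0574 for Rpe and -0.0913 to 0.1187 for Egln3. The difference in the share of Eno2 ran from -2.07 to 1.19 percentage points. The cause of these turns was not tested. Depth limits Slc16a3, Hk2 and Ankrd37 most.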
